A study of Mus musculus with 4 samples.

Results

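S100a8, S100a9 and S100a7a are 3 neighbouring genes of the S100 family, taken by symbol from the 20611 genes of each count table. All 3 were found, and all 3 passed the filter on low counts that left 15068 genes for testing. The tissue was back skin taken from BALB/c males aged 8 to 9 weeks. Every mouse received 5% imiquimod (IMQ) cream, 47 mg per day, from day 1 to day 5, and skin was taken on day 6. Imiquimod activates Toll-like receptor 7 and gives a psoriasis-like inflammation on mouse skin. The IMQ+IDMF group (1 library) also received, about 1 h after the cream, a lotion with IDMF. The full name of IDMF is isosorbide di-(methyl fumarate), and it is a pro-drug that carries dimethyl fumarate, a drug given for psoriasis. The IMQ+VEH group (2 libraries) received the vehicle lotion at that time, and the IMQ group (1 library) received the cream only. Untreated skin is not analysed here, and the labels do not say whether a library holds skin of more than 1 mouse. The submitters' design text describes the libraries as independent biological replicates, and nothing further says how the IMQ+VEH pair was obtained.

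S100 proteins are small calcium-binding proteins. S100a8 and S100a9 proteins pair into calprotectin, which neutrophils store in large amounts and which keratinocytes make when the epidermis is inflamed or wounded. Outside the cell calprotectin withholds zinc and manganese from microbes and acts as an alarmin, a danger signal read by Toll-like receptor 4. S100a7a is the mouse counterpart of the human genes for psoriasin and koebnerisin, whose proteins are abundant in psoriatic epidermis and attract leukocytes. Cytokines of the IL-17, IL-22, IL-1 and IL-36 families are known to raise these genes in keratinocytes.

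All 3 genes lie on chromosome 3 within the epidermal differentiation complex, a cluster that also holds cornified envelope genes. In the GENCODE M21 annotation of GRCm38, S100a7a spans 90654017 to 90658669 on the plus strand, S100a8 spans 90668978 to 90670035 on the plus strand and S100a9 spans 90692632 to 90695721 on the minus strand. Between S100a7a and S100a8 lie 10308 bases, and between S100a8 and S100a9 lie 22596 bases, with 0 annotated genes in either gap. The main transcript of each has 3 exons, with 486 bases for S100a8, 512 for S100a9 and 1280 for S100a7a. No other gene of that annotation overlaps any of them.

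The 250 bases before each start site are shown because S100a8 and S100a9 moved together across the libraries while S100a7a followed another pattern. The sequences are those of RefSeq on GRCm38.p6, 5′ to 3′ on the gene's strand, with motif matches in capitals. The windows are chr3:90668821-90669070 on the plus strand for S100a8, chr3:90695722-90695971 on the minus strand for S100a9 and chr3:90654052-90654301 on the plus strand for S100a7a. GENCODE M21 has a longer first exon of S100a8, which begins inside the window shown, and a non-coding transcript of S100a7a that begins before its window.
S100a8: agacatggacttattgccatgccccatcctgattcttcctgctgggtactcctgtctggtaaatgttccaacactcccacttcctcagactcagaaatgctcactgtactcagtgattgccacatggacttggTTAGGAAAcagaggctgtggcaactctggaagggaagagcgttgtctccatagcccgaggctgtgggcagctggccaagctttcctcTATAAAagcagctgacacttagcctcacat
S100a9: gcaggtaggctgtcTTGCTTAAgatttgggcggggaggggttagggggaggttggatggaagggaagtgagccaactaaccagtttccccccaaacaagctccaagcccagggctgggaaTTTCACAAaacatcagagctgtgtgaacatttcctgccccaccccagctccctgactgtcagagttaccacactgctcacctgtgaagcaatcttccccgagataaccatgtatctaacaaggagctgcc
S100a7a: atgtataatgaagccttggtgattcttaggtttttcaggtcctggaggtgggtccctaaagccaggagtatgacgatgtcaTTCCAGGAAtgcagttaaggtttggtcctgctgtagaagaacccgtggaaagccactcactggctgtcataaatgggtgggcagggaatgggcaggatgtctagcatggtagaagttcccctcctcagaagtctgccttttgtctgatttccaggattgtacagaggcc
4 short motifs were searched on both strands, with N as any base: TTNNGNAA for C/EBP factors, TGANTCA for AP-1, TTCNNNGAA for STAT factors and TATAAA for the TATA box. The S100a8 window held a C/EBP match at -117 to -110 from the start and a TATA box at -30 to -25. The S100a9 window held 2 C/EBP matches, at -236 to -229 and at -130 to -123. In the S100a7a window there was a STAT match at -169 to -161. Among 32851 RefSeq windows of the same length, 36.8% held the C/EBP letters, 6.75% AP-1, 7.02% STAT and 12.4% the TATA box. The C/EBP letters are therefore common. The matches are descriptions of sequence and not of binding.

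Total counts per library lay between 21167149 and 26639628. Epidermal keratins of skin were abundant in every library, with 408682 to 464425 counts of Krt10 and 83166 to 115634 of Krt5. The skin also held other tissue in differing amounts. Adipocyte markers summed to 2946 CPM (counts scaled to library size, with sizes scaled by the TMM method) in IMQ+IDMF, 3938 and 2695 CPM in the IMQ+VEH libraries and 865.6 CPM in IMQ. Skeletal muscle markers summed to 28320 CPM in IMQ+IDMF, 29500 and 21140 CPM in IMQ+VEH and 15660 CPM in IMQ. Fibroblast markers summed to 2285 CPM in IMQ+IDMF, 6619 and 3472 CPM in IMQ+VEH and 1826 CPM in IMQ, and hair follicle markers to 30.7, then 9.70 and 13.6, then 71.6 CPM. In IMQ+VEH vs IMQ, 5 of 10 adipocyte markers were called higher (edgeR, adjusted p threshold of 0.05) and 3 of 10 tested hair follicle markers lower, against 0.338% of all tested genes called higher and 0.325% called lower. Their part in the levels below was not tested. In bulk skin, fewer cells of a type and less RNA per cell cannot be told apart.

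The calprotectin genes were among the genes with the highest deposited FPKM, and koebnerisin was scarce outside the IMQ library. S100a8 had 16828 counts in IMQ+IDMF, 50533 and 18079 counts in IMQ+VEH replicates 1 and 2, and 91242 counts in IMQ. By FPKM, a level scaled by the authors' tools to transcript length and library size, S100a8 stood at 2862, then 7317 and 3295, then 13066 in the same order of libraries. It ranked 17th by FPKM of the 20611 genes in IMQ+IDMF, 5th and 17th in IMQ+VEH and 3rd in IMQ. The IMQ library was highest, IMQ+VEH replicate 1 was next, and IMQ+VEH replicate 2 and IMQ+IDMF were low and close together.

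S100a9 gave the same order of libraries. It had 20828 counts in IMQ+IDMF, 74707 and 25269 in IMQ+VEH replicates 1 and 2, and 127988 in IMQ. Its FPKM values were 2099, then 6409 and 2728, then 10859. Together the calprotectin genes summed to 1684 CPM in IMQ+IDMF, 4465 and 2114 CPM in IMQ+VEH and 8638 CPM in IMQ, a 5.13-fold range between the lowest and highest library.

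S100a7a had 16 counts in IMQ+IDMF (exact 95% Poisson interval 9.15 to 26.0), 21 in IMQ+VEH replicate 1 (13 to 32.1), 36 in replicate 2 (25.2 to 49.8) and 460 in IMQ (419 to 504). The intervals cover counting error only. Its FPKM values were 0.962, then 1.08 and 2.32, then 23.3. Scaled to library size this was 0.716 CPM in IMQ+IDMF, 0.749 and 1.76 CPM in IMQ+VEH and 18.1 CPM in IMQ. The IMQ library stood far above the other 3, of which IMQ+VEH replicate 2 was highest. By FPKM S100a8 exceeded S100a7a by 2974-fold in IMQ+IDMF, by 6804-fold and 1420-fold in IMQ+VEH and by 561-fold in IMQ.

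**Figure D1:**
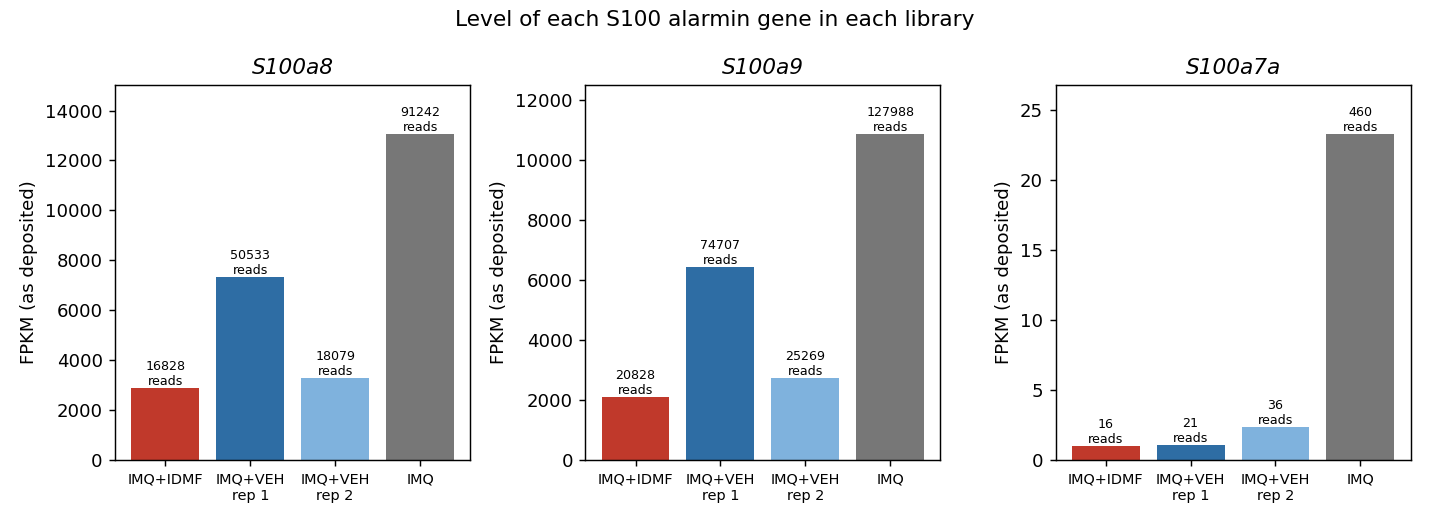
Deposited FPKM (vertical axis, linear from 0) of S100a8, S100a9 and S100a7a in each of the 4 libraries, 1 bar per library, with the read count above it. The IMQ bar is highest for each gene, at 13066, 10859 and 23.3 FPKM, and IMQ+IDMF is lowest.

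IMQ+IDMF set against IMQ+VEH addresses the effect of the compound beyond that of its lotion. S100a8, S100a9 and S100a7a each had their lowest level in IMQ+IDMF, as 19.5% of all tested genes did, and 27.5% lay below the IMQ+VEH pair alone. None of the 3 passed the test across all genes (edgeR quasi-likelihood F test, Benjamini-Hochberg adjusted p = 1 for each). The log2 fold change was -0.83 (SE 0.60, unadjusted 95% interval -2.14 to 0.48) for S100a8. It was -1.06 (SE 0.67, interval -2.52 to 0.39) for S100a9 and -0.78 (SE 0.68, interval -2.25 to 0.69) for S100a7a. These intervals allow a fall of more than 4-fold as well as a small rise.

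The size of the difference depended on which IMQ+VEH library was used, and in opposite ways for calprotectin and koebnerisin. For S100a8 the log2 CPM difference of IMQ+IDMF was -1.26 to replicate 1 and -0.23 to replicate 2. For S100a9 it was -1.52 to replicate 1 and -0.40 to replicate 2. For S100a7a it was -0.06 to replicate 1 and -1.20 to replicate 2. Across all genes 0 were called by edgeR in this comparison (0%), 306 had an unadjusted p under 0.05, and DESeq2 also called 0. Without the filter on low counts edgeR called 16. The test rests on the spread of 1 pair of libraries, with the single libraries assumed to vary alike.

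IMQ+VEH set against IMQ addresses the effect of the vehicle lotion by itself. S100a7a fell to 4.13% and 9.69% of the IMQ level in IMQ+VEH replicates 1 and 2. The log2 fold change was -3.88 (SE 0.56), a 14.7-fold lower level, with an adjusted p of 0.00695 by edgeR. It was 1 of 49 genes called lower, among 100 called in either direction (0.664% of all tested genes, 0.325% for lower calls). Calprotectin did not pass the threshold by this test. S100a8 stood at 50.1% and 24.5% of the IMQ level (log2 fold change -1.42, SE 0.56, edgeR adjusted p = 0.454). S100a9 stood at 52.8% and 24.4% (log2 fold change -1.37, SE 0.61, edgeR adjusted p = 0.543). DESeq2 gave adjusted p of 0.0396 for S100a8 and 0.0662 for S100a9, so the call on S100a8 depends on the tool. IMQ had the highest level of each of the 3 genes. Of all tested genes, 35% were lower in both IMQ+VEH libraries than in IMQ, and 30.1% had IMQ above the other 3 libraries.

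Between IMQ+IDMF and IMQ there is a single library on each side, and sizes are given with no test. S100a8 stood at 20.9% of the IMQ level in IMQ+IDMF, S100a9 at 18.5% and S100a7a at 3.95%. These are log2 CPM differences of -2.26, -2.44 and -4.51. Each was more than 2-fold below IMQ, as were 4.51% of all tested genes. IMQ+IDMF and both IMQ+VEH libraries share the single IMQ library as their reference in these values, so any peculiarity of it enters all of them.

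**Figure D2:**
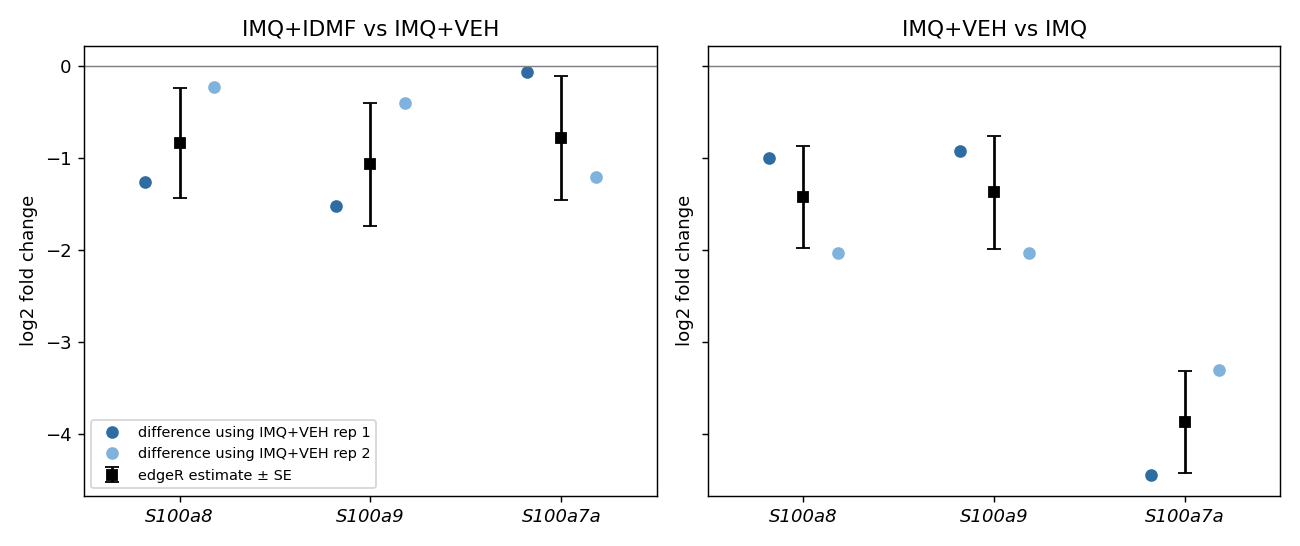
Log2 fold change (vertical axis) of the 3 genes in IMQ+IDMF vs IMQ+VEH (left) and IMQ+VEH vs IMQ (right). Squares with bars are edgeR estimates ± SE and circles are the log2 CPM differences with each IMQ+VEH library alone; S100a7a in IMQ+VEH vs IMQ, at -3.88, lies apart from S100a8 at -1.42 and S100a9 at -1.37.

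The 2 IMQ+VEH libraries differed about 2-fold on every member, but not in the same direction. Replicate 2 minus replicate 1 was -1.03 in log2 CPM for S100a8 and -1.11 for S100a9, a level 2.04-fold and 2.16-fold higher in replicate 1. For S100a7a it was 1.14, higher in replicate 2. The median size of this difference over all tested genes was 0.31. A larger difference than that of S100a8 was found for 9.42% of genes, than that of S100a9 for 7.98% and than that of S100a7a for 7.45%. Of 102 genes with a mean log2 CPM of at least 10, a limit chosen after the values were seen, 5 differed more than 2-fold within the pair. They were S100a8, S100a9, the collagen gene Col3a1 (-1.16), the prion protein gene Prnp (1.08) and the epidermal 14-3-3 gene Sfn (1.09).

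Set against this spread, several neighbours in the order of levels are not separated. For S100a8, IMQ+IDMF and IMQ+VEH replicate 2 differed by 0.23, and IMQ+VEH replicate 1 and IMQ by 1.00, both within the 1.03 between the IMQ+VEH libraries. For S100a9 the same steps were 0.40 and 0.92, within 1.11. For S100a7a the step between IMQ+IDMF and IMQ+VEH replicate 1 was 0.06, while IMQ+VEH replicate 2 lay 3.31 below IMQ, beyond the 1.14 within the pair.

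**Figure D3:**
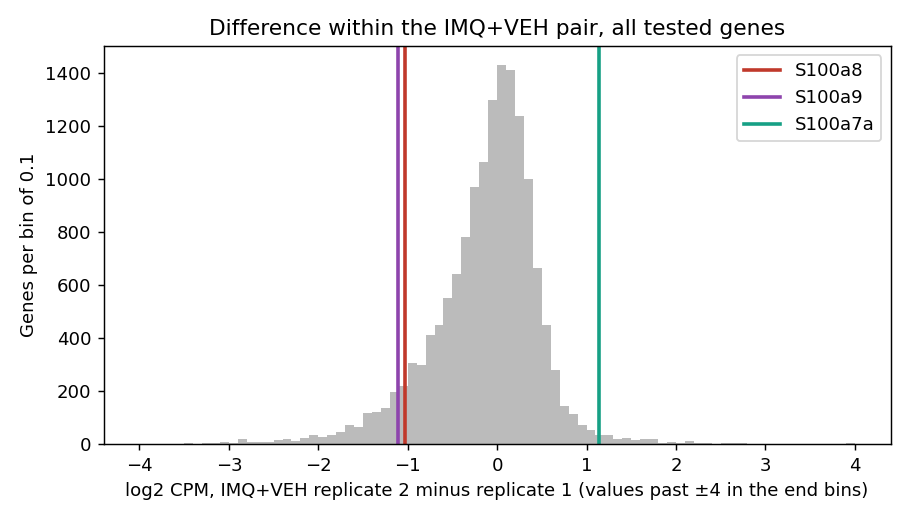
Histogram of the log2 CPM difference of IMQ+VEH replicate 2 minus replicate 1 (horizontal axis) over 15068 tested genes, in genes per bin (vertical axis). Lines mark S100a8 at -1.03 and S100a9 at -1.11 on the left and S100a7a at 1.14 on the right.

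Calprotectin is made of equal parts of its subunits, and the ratio of their mRNAs varied far less than their levels. There were 0.808 S100a8 counts per S100a9 count in IMQ+IDMF, 0.676 and 0.716 in IMQ+VEH replicates 1 and 2, and 0.713 in IMQ. By the deposited FPKM, S100a8 exceeded S100a9 in every library, by 1.36 times in IMQ+IDMF, 1.14 and 1.21 times in IMQ+VEH and 1.20 times in IMQ. The FPKM ratio was 1.69 times the count ratio in each library, whereas the main transcripts of S100a9 and S100a8 differ in length by 1.05 times. Counts divided by these lengths put S100a8 below S100a9, at 0.851 of it in IMQ+IDMF, 0.713 and 0.754 in IMQ+VEH and 0.751 in IMQ. Which subunit was higher thus depends on the measure. The measures differ only by factors that are constant over the libraries, so the order of libraries, with IMQ+IDMF highest, is necessarily shared. As a share of the counts of both genes, S100a8 took 44.7% in IMQ+IDMF (exact Clopper-Pearson 95% interval 44.2% to 45.2%). It took 40.4% (40.1% to 40.6%) and 41.7% (41.2% to 42.2%) in the IMQ+VEH libraries and 41.6% (41.4% to 41.8%) in IMQ. The IMQ+IDMF ratio was the highest of the 4 and lay above the interval of each other library, for counting error only.

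In log2 terms the S100a8 to S100a9 ratio of IMQ+IDMF was 0.22 above the mean of the IMQ+VEH pair, a 1.16-fold difference. The pair itself differed by 0.08, and the IMQ+VEH mean differed from IMQ by -0.04. The difference of IMQ+IDMF was thus larger than the spread of the pair, but 1 library against 2 cannot give an exact permutation p below 0.333, so it was not tested.

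**Figure D4:**
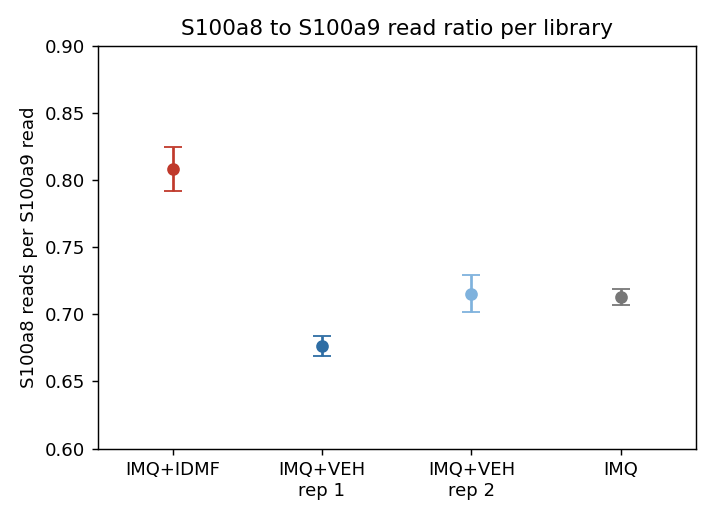
S100a8 counts per S100a9 count (vertical axis, from 0.6) in each library, with bars for the exact 95% binomial interval, which covers counting error only. IMQ+IDMF lies at 0.808 and the other 3 libraries lie between 0.676 and 0.716.

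Genes with the most similar pattern were ranked by the root mean square difference of their log2 CPM profiles over the 4 libraries, each centred on its own mean, among 12422 genes. With 4 points many genes can look alike, and the libraries share depth and tissue makeup. The nearest gene to S100a8 was S100a9, at 0.094, and S100a8 was likewise nearest to S100a9. After it, S100a8 was closest to Il18rap (0.148), a chain of the IL-18 receptor, and to Cdhr1 (0.17), Dnah10 (0.187) and Il20ra (0.196), the alpha chain of receptors for IL-20 family cytokines. For S100a9 the next were Uox (0.153), urate oxidase, Cdhr1 (0.189), Il20ra (0.232) and Dnah10 (0.234). Within a distance of 0.3 lay 17 genes for S100a8 and 10 for S100a9.

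S100a7a had other neighbours. The nearest was Sprr2f, a cornified envelope precursor of the same gene complex, at 0.295, with 109 counts in IMQ+IDMF, 248 and 262 in IMQ+VEH and 3429 in IMQ. It was the only gene within 0.3. Next were Pla2g4d (0.552), an epidermal phospholipase, Lrat (0.552), which esterifies retinol, Sprr2i (0.57) and Lce3b (0.578), a late cornified envelope gene. Reads of Sprr2 and Lce3 genes may be shared between near-identical copies. S100a8 ranked 67th in likeness to S100a7a, at 1.27, and S100a9 69th, at 1.28.

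Besides the 3 members, 14 further S100 genes were listed, and the 11 of them that were tested had 0 calls in either comparison. Their median log2 fold change was -0.10 in IMQ+IDMF vs IMQ+VEH and 0.53 in IMQ+VEH vs IMQ, against -0.00835 and 0.00255 for all tested genes. S100a11, the S100 gene next in FPKM, had 1589 FPKM in IMQ+IDMF, 1414 and 1839 FPKM in IMQ+VEH and 1482 FPKM in IMQ. S100a14 had 719, then 586 and 929, then 679 FPKM in the same order. The gene 9130204L05Rik, also named S100a7l2 and a relative of S100a7a, was lowest in IMQ, where S100a7a was highest. It had 83 counts in IMQ+IDMF, 93 and 109 in IMQ+VEH and 38 in IMQ, and did not pass the test in IMQ+VEH vs IMQ (log2 fold change 1.52, SE 0.65, edgeR adjusted p = 0.511).

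Cytokines that are known to raise S100 alarmins had few counts apart from Il1a and the IL-36 genes. Of 17 listed, 14 were tested and 0 were called in either comparison, with medians of -0.31 in IMQ+IDMF vs IMQ+VEH and 0.10 in IMQ+VEH vs IMQ. The IL-36 genes Il1f6, Il1f8 and Il1f9, keratinocyte cytokines of the IL-1 family, were highest in IMQ. Il1f9 had 5527 counts in IMQ+IDMF, 6803 and 7195 in IMQ+VEH and 11057 in IMQ. Il1f6 had 4435, then 6257 and 5778, then 9511, and Il1f8 had 2334, then 3704 and 2937, then 4904. Il1a, which codes for IL-1 alpha, had 1100 counts in IMQ+IDMF, 755 and 1317 in IMQ+VEH and 1037 in IMQ. Within the IMQ+VEH pair, Il17a and Il17f were higher in replicate 1, as calprotectin was: Il17a had 70 and 8 counts and Il17f 106 and 8. In IMQ they had 36 and 38 counts, fewer than in IMQ+VEH replicate 1, whereas calprotectin had more. By CPM, Il1a, Il1b, Il20 and the IL-36 genes were higher in replicate 2 and the other tested cytokines in replicate 1. The list median of replicate 2 minus replicate 1 was -0.27. Il1b, which codes for IL-1 beta, had 66 counts in IMQ+IDMF, 28 and 46 in IMQ+VEH and 245 in IMQ. It did not pass the test in IMQ+VEH vs IMQ (log2 fold change -2.59, SE 0.59, edgeR adjusted p = 0.0919).

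Of 13 receptor genes for these cytokines, Il20ra alone was called, against 0.325% of all tested genes called lower in IMQ+VEH vs IMQ. It had 152 counts in IMQ+IDMF, 388 and 186 in IMQ+VEH and 1001 in IMQ, and was lower in IMQ+VEH than in IMQ (log2 fold change -1.78, SE 0.34, edgeR adjusted p = 0.0392). The receptor list had medians of -0.09 in IMQ+IDMF vs IMQ+VEH and -0.10 in IMQ+VEH vs IMQ. Transcription factors of keratinocytes and inflammation had 0 calls among 12, with medians of 0.07 and -0.11. By CPM, which does not account for length, the highest were Cebpa, Trp63, Stat3 and Hif1a. Stat3, which carries IL-22 and IL-6 family signals, had 5342 counts in IMQ+IDMF, 7389 and 5333 in IMQ+VEH and 7728 in IMQ.

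Receptors and signalling genes for the alarmins had 0 calls among 11, with medians of -0.12 in IMQ+IDMF vs IMQ+VEH and 0.12 in IMQ+VEH vs IMQ. Tlr4, the receptor of calprotectin, had 152 counts in IMQ+IDMF, 316 and 90 in IMQ+VEH and 157 in IMQ. Ager, which codes for the receptor RAGE, had 42, then 42 and 8, then 15. By CPM the highest were Bsg, a further receptor for S100a9, Hmgb1, another alarmin, Cd36 and Nptn.

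Of 12 antimicrobial partners, 8 were tested and 2 were called, both beta-defensins and both lower in IMQ+VEH than in IMQ. Of all tested genes, 0.325% were called lower in that comparison. Defb3 had 370 counts in IMQ+IDMF, 1106 and 425 in IMQ+VEH and 5227 in IMQ. Its log2 fold change in IMQ+VEH vs IMQ was -2.77 (SE 0.33, edgeR adjusted p = 0.00268). Defb4 had 22, then 109 and 56, then 475 (log2 fold change -2.49, SE 0.45, edgeR adjusted p = 0.0255). Both had more counts in IMQ+VEH replicate 1 than in replicate 2, the order of calprotectin. By CPM, Lcn2 and Lyz2 had that order too. Defb14, a further beta-defensin, and Slpi, Wfdc21 and Camp were higher in replicate 2. The list median of replicate 2 minus replicate 1 was 0.40. Lcn2, an iron-scavenging protein of neutrophils and keratinocytes, was not highest in IMQ: it had 1060 counts in IMQ+IDMF, 2235 and 1159 in IMQ+VEH and 1285 in IMQ. The list median was -0.69 in IMQ+IDMF vs IMQ+VEH and -0.04 in IMQ+VEH vs IMQ.

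Since neutrophils and stressed keratinocytes both make calprotectin, their markers are given beside it. Neutrophil markers summed to 129 CPM in IMQ+IDMF, 185 and 166 CPM in IMQ+VEH and 197 CPM in IMQ, a 1.53-fold range. Of the 20 listed, 19 were found and 15 tested, 0 were called, and 8 lay below both IMQ+VEH libraries in IMQ+IDMF (27.5% of all tested genes did). Their median log2 fold change was -0.67 in IMQ+IDMF vs IMQ+VEH and -0.66 in IMQ+VEH vs IMQ, and the median log2 CPM difference of IMQ+IDMF to IMQ was -1.40. Cxcr2 and Il1r2 held most of the sum, with 94.5 CPM in IMQ+IDMF, 98.1 and 114 CPM in IMQ+VEH and 110 CPM in IMQ. The other markers of the list summed to 34.2 CPM in IMQ+IDMF, 86.8 and 51.9 CPM in IMQ+VEH and 86.8 CPM in IMQ. Granule genes differed in level. Ngp had 0 counts in IMQ+IDMF, 0 and 5 in IMQ+VEH and 0 in IMQ, and Retnlg had 0, then 1 and 3, then 3. Mpo, myeloperoxidase, had 29, then 35 and 87, then 7, and Mmp9, a gelatinase, had 118, then 197 and 201, then 195. Csf3r, the receptor of granulocyte colony-stimulating factor, had 93 counts in IMQ+IDMF, 229 and 91 in IMQ+VEH and 157 in IMQ. Other markers were highest in IMQ: Fpr2 had 13, then 59 and 28, then 95, and Trem1 had 3, then 2 and 2, then 28. Of the 15 tested markers, 8 had both IMQ+VEH libraries below IMQ and 2 had both above. Among the 15068 tested genes these numbers were 5279 and 5057. Ly6g, a defining mouse neutrophil marker, was not matched. Among the members with the most CPM, Cxcr2, a chemokine receptor, had 1307 counts in IMQ+IDMF, 1294 and 1324 in IMQ+VEH and 1584 in IMQ. Il1r2, a decoy receptor of IL-1, had 807, then 1457 and 1019, then 1205. Itgam, an integrin chain of myeloid cells, had 293, then 1467 and 404, then 879, and Stfa2l1 had 93, then 163 and 141, then 564.

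Monocyte and macrophage markers summed to 352 CPM in IMQ+IDMF, 844 and 491 CPM in IMQ+VEH and 458 CPM in IMQ. Of 14, 13 were below both IMQ+VEH libraries in IMQ+IDMF, against 27.5% of all tested genes, and 0 were called, with medians of -1.01 in IMQ+IDMF vs IMQ+VEH and 0.39 in IMQ+VEH vs IMQ. This was not particular to these markers. Of 10 fibroblast markers, 10 were below both IMQ+VEH libraries in IMQ+IDMF, with a median of -1.1 in IMQ+IDMF vs IMQ+VEH. Replicate 2 minus replicate 1 had a median of -0.88 for fibroblast markers and -0.82 for monocyte and macrophage markers. None of the 14 was at 0 in every library. Their summed level, like that of calprotectin, was higher in IMQ+VEH replicate 1 than in replicate 2 and lowest in IMQ+IDMF, but the sum was not highest in IMQ. Single markers departed from this order: Ccr2 and Chil3 had their highest CPM in IMQ, and Plac8 and Chil3 were higher in IMQ+VEH replicate 2 than in replicate 1. C1qa, a complement gene of macrophages, had 1360 counts in IMQ+IDMF, 4397 and 1917 in IMQ+VEH and 2153 in IMQ.

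Stress keratinocyte markers summed to 8905 CPM in IMQ+IDMF, 9760 and 9477 CPM in IMQ+VEH and 22780 CPM in IMQ. Of 13, 12 had their highest IMQ+VEH value below that of IMQ, against 35% of all tested genes. Of them 4 were called lower, against 0.325% of all tested genes: Sprr2e, Sprr2f, Sprr2h and Stfa2, with edgeR adjusted p between 0.000222 and 0.0430. The first 3 code for cornified envelope precursors and Stfa2 for a cysteine protease inhibitor. The list median in IMQ+VEH vs IMQ was -1.38, close to the values of S100a8 and S100a9. In IMQ+IDMF vs IMQ+VEH the list median was -0.13, against -0.83 for S100a8 and -1.06 for S100a9. Within the IMQ+VEH pair, replicate 2 minus replicate 1 had a list median of 0.21, against -1.03 and -1.11. Krt6b, a stress keratin, had 18626 counts in IMQ+IDMF, 48638 and 18710 in IMQ+VEH and 139924 in IMQ. Krt16, Krt17 and Sprr1b, of the same list, varied otherwise. By CPM, Krt16 had 2829 in IMQ+IDMF, 2933 and 2815 in IMQ+VEH and 5994 in IMQ. Krt17 had 1928, then 1524 and 1830, then 1622 CPM, and Sprr1b had 322.8, then 200.2 and 444.1, then 763.4 CPM. Basal keratinocyte markers summed to 12130 CPM in IMQ+IDMF, 9816 and 10270 CPM in IMQ+VEH and 16200 CPM in IMQ, with 0 calls. Krt14 held most of the IMQ sum, with 9905 CPM in IMQ, 5334 CPM in IMQ+IDMF and 4540 and 4677 CPM in IMQ+VEH. The median of the basal list in IMQ+VEH vs IMQ was -0.11. Suprabasal markers summed to 46700, then 41700 and 54360, then 52550 CPM, also with 0 calls. The part of either cell source in the calprotectin levels was not tested.

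**Figure D5:**
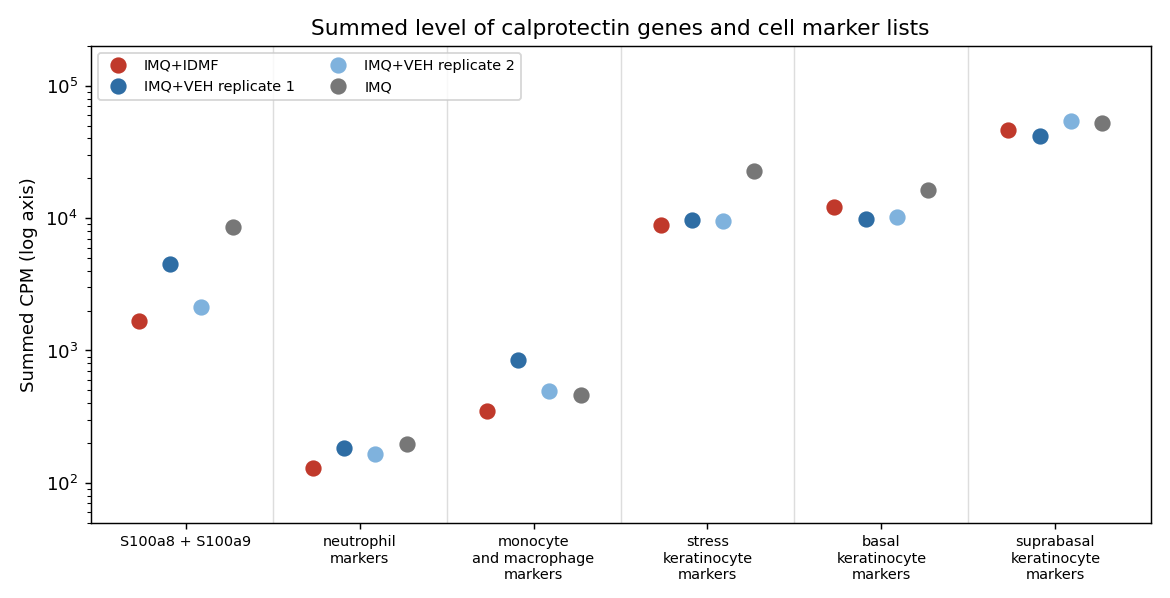
Summed CPM (vertical axis, log scale) of S100a8 plus S100a9 and of 5 marker lists, 1 point per library. Calprotectin spans 1684 to 8638 CPM, neutrophil markers, mostly Cxcr2 and Il1r2, 129 to 197 CPM and stress keratinocyte markers 8905 to 22780 CPM.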

How the data were processed

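RNA of mouse back skin was read in single-end runs of 50 cycles, 1 library per table. For each library the authors deposited a raw count and an FPKM value per gene symbol, per the file headers. The tools named are HTSeq, Cufflinks and TopHat2, and the builds mm10 and GRCm38, per the submitters' processing notes. No version, annotation or strand setting is stated there, nor how multiply mapped reads were treated.

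Tests used the counts: a two-sided quasi-likelihood F test (edgeR 4.0.16, R 4.3.3), TMM scaling, filterByExpr by group (minimum count 10, total 15), 1 mean per group, Benjamini-Hochberg adjustment over 15068 genes, threshold 0.05. Only the IMQ+VEH pair gave residual spread (1 degree of freedom, 11.2 prior degrees of freedom). P-values and SE thus rest on the spread of that pair, which may be technical. That spread is mostly pooled over genes, with little weight on the gene's own difference within the pair. SE was taken as log2 fold change over the root of F. Log2 CPM used a prior count of 2. The fit was checked on simulated counts. Groups came from the labels.

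The members and gene lists were chosen with earlier results of these data known. From each list, called members were named, otherwise the 4 highest by CPM, which does not account for length, not all of them printed. Tlr4, Ager, Lcn2, Il17a, Il17f, Csf3r, Ngp, Retnlg, Mpo, Mmp9, Ccr2, Chil3, Plac8, Krt6b, S100a11, S100a14 and 9130204L05Rik were chosen after their values were seen. So were Krt16, Krt17, Sprr1b, Defb14, Slpi, Wfdc21, Camp, Lyz2, Fpr2, Trem1, Il1b and Il20. For likeness the 5 nearest genes with a mean log2 CPM of at least 1 were named, without predicted, Rik and antisense names. Older symbols were matched through RefSeq for 4 list genes. Alternatives were DESeq2 1.42.0, other scaling and filters, other groupings, deposited FPKM and leaving out each IMQ+VEH library. A count of 3, taken as the floor of detection, equals 0.107 to 0.146 CPM, for counting error only.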

Additional observations from a re-analysis of the deposited data

How the results depend on the processing

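Of 90 recomputed values, 85 kept their direction and side of the threshold or, where untested, moved by less than 1 SD of the IMQ+VEH pair. Leaving out 1 library of the pair can hardly move an estimate by that much, so those values say little about stability. The same holds for the S100a8 to S100a9 ratio by deposited FPKM, a fixed multiple of the count ratio. Counts of called genes were taken as kept when of similar size, as 131, 81 and 120 were against 100 in IMQ+VEH vs IMQ. The exceptions were the S100a8 difference of IMQ+VEH vs IMQ, which DESeq2 called at -1.415 (adjusted p 0.0396, against 0.139 to 0.454 under the edgeR settings), and 4 counts of called genes. Without a filter on low counts edgeR called 16 genes in IMQ+IDMF vs IMQ+VEH and 424 in IMQ+VEH vs IMQ. In the second comparison DESeq2 called 202, and IMQ+VEH and IMQ+IDMF as 1 group against IMQ gave 55. The cause was not tested. S100a7a was called lower in IMQ+VEH vs IMQ under every tested alternative, with adjusted p between 3.52e-11 and 0.0299. With IMQ and IMQ+VEH as 1 group, IMQ+IDMF differed by -1.48, -1.68 and -3.26 for S100a8, S100a9 and S100a7a, with none called. Leaving out 1 IMQ+VEH library leaves no residual degrees of freedom and gives no test. IMQ+IDMF vs IMQ+VEH then ranged from -1.26 to -0.23 for S100a8, -1.52 to -0.41 for S100a9 and -1.29 to -0.06 for S100a7a. IMQ+VEH vs IMQ ranged from -2.03 to -0.997 for S100a8, -2.03 to -0.92 for S100a9 and -4.59 to -3.36 for S100a7a. No paired analysis was possible because IMQ and IMQ+IDMF have a single library each. Depth limits S100a7a, with 16 to 36 counts in 3 libraries, and not S100a8 or S100a9.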
